A study of Mus musculus with 4 samples.

Results

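D430036J16Rik is a mouse gene for a long noncoding RNA (lncRNA) on chromosome 9, which the array's annotation classes as natural antisense. It was measured by 3 of the 60930 probes that were not marked as controls. These are all the probes that carry its symbol in the study's lists of changed lncRNAs. The lists were made from the same arrays and name 3937 probes of 3826 genes. At 24 h alone the paper counts more changed lncRNAs, higher and lower together, so the lists hold only a part of them. A probe without a name may therefore also have been called changed in the study. The 3 probes stand in the list of lncRNAs higher at 72 h. The gene was thus selected on its measured change, so its levels and changes are a description and no test was made on them. It had been singled out as a transcript lost at 96 h. The signal was far lower there, but all 3 probes were still well above background, so that "lost" was not borne out.

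RNA came from RAW264.7, an established mouse macrophage-like tumour line that forms osteoclasts in culture and is used in place of primary marrow macrophages. Cells were sampled before induction (0 h, called monocytes) and after 24 h (pre-osteoclasts), 72 h (mature osteoclasts) and 96 h (activated osteoclasts) with RANKL (100 ng/mL) plus M-CSF (50 ng/mL), cytokines that together drive osteoclast formation. Each time point was measured on 1 array, with no replicate, and no p-value, standard deviation or confidence interval between cultures can be given. Slide 1 carried the arrays of 0 h and 72 h, slide 2 those of 24 h and 96 h, so that slide and time cannot be told apart where 24 h or 96 h is set against 0 h or 72 h.

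Osteoclasts are large multinucleated cells that resorb bone and arise by fusion of precursors of the monocyte and macrophage lineage. A natural antisense RNA is transcribed from the strand opposite to another gene and overlaps it, and some such RNAs are known to alter the expression of the gene they overlap while others have no known role. Htr1b, the gene that D430036J16Rik overlaps, encodes a serotonin receptor that lowers cyclic AMP, and it has been studied in bone as a receptor for circulating serotonin on cells of the osteoblast lineage.

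In RefSeq's annotation of GRCm38.p6, D430036J16Rik lies at chr9:81631930-81645156 on the plus strand, an interval of 13227 bases with 5 transcripts. Htr1b lies at chr9:81628291-81633832 on the minus strand. The intervals overlap head to head over 1903 bases, from 81631930 to 81633832, which holds the start of both genes. RefSeq's promoter windows of D430036J16Rik, chr9:81631680-81631979 and chr9:81632108-81632407, both lie inside the interval of Htr1b.

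**Figure D1:**
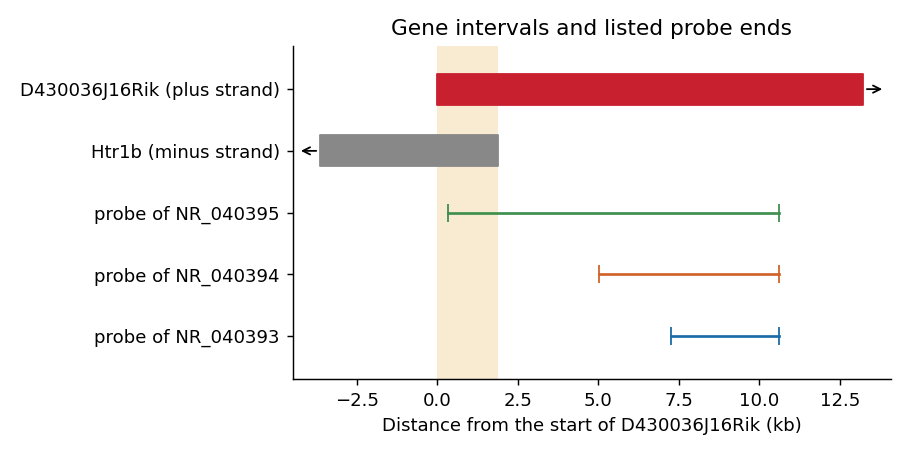
Gene intervals of D430036J16Rik and Htr1b and the listed ends of the 3 probes, as the distance in kb from the start of D430036J16Rik on GRCm38. Arrows give the direction of transcription, the shaded band is the overlap of 1903 bases, and the line of each probe joins the ends that the study's lists give; all 3 lines end at the same base, outside the interval of Htr1b.

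The probe sequences are shown because they decide how far the 3 probes can be read as separate measures. Each has 60 bases, written 5′ to 3′, with the bases ahead of the run that all 3 share in capitals.
NR_040393: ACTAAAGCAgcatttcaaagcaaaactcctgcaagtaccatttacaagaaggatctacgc
NR_040394: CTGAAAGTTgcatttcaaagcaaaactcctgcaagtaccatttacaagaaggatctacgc
NR_040395: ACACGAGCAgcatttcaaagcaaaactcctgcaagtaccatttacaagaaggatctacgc

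The last 51 bases were the same in all 3 probes, and the probes differed from each other only within the first 9, at 7 of these positions. The probes of NR_040393 and NR_040395 differed at 3 bases and shared a run of 55. The probe of NR_040394 differed from that of NR_040393 at 5 bases and from that of NR_040395 at 7. GC content was 40% in the first and second probe and 43.3% in the third. The probes target transcripts of 1732, 1709 and 1606 bases, and the lists also match the first to NR_040396 and the second to NR_040397, so that all 5 RefSeq transcripts of the gene were covered. Since the probes read nearly the same stretch of RNA, they are close to repeated measures of 1 sequence and not 3 independent measures of the gene. Their signals cannot be assigned to single transcripts.

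By the lists' coordinates on GRCm38, the probes span 3373 bases (chr9:81639174-81642546, NR_040393), 5605 bases (chr9:81636942-81642546, NR_040394) and 10263 bases (chr9:81632284-81642546, NR_040395), all on the plus strand. A span far longer than a 60-base probe means that each probe crosses at least 1 splice junction, with a different upstream end joined to a common downstream exon. For NR_040395 the upstream side could be read in the second promoter window, of which 60 bases at chr9:81632240-81632299 on the plus strand of GRCm38.p6 are shown with the match to the start of the probe in capitals.
NR_040395 upstream exon end: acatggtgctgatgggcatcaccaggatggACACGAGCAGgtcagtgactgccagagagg
The first 10 bases of the probe matched positions 81632270 to 81632279 and were followed by gt, the first bases of most introns. This stretch lies inside the interval of Htr1b, on the opposite strand. The listed start of that probe is 81632284, which is not the matched base, so the listed ends were read as approximate. No genome sequence was used here to place the other probes.

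Before any normalization between arrays, the probe of NR_040393 had a processed signal (the spot's intensity after background subtraction) of 779, 1519, 2216 and 106 units on the 0, 24, 72 and 96 h arrays. The probe of NR_040394 had 633, 1294, 1631 and 94.4. The probe of NR_040395 had 716, 1472, 2196 and 99.5. In each probe the signal was highest at 72 h, next at 24 h, then at 0 h, and lowest at 96 h, where no probe came near its signal on another array. The error that the scanner software estimates for a signal was 10.0% at 0, 24 and 72 h and 12.1% to 12.7% at 96 h. The local background around these 12 spots lay between 24 and 37 units. All 12 spots were called well above background by the scanner software, and 0 were marked as outliers.

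**Figure D2:**
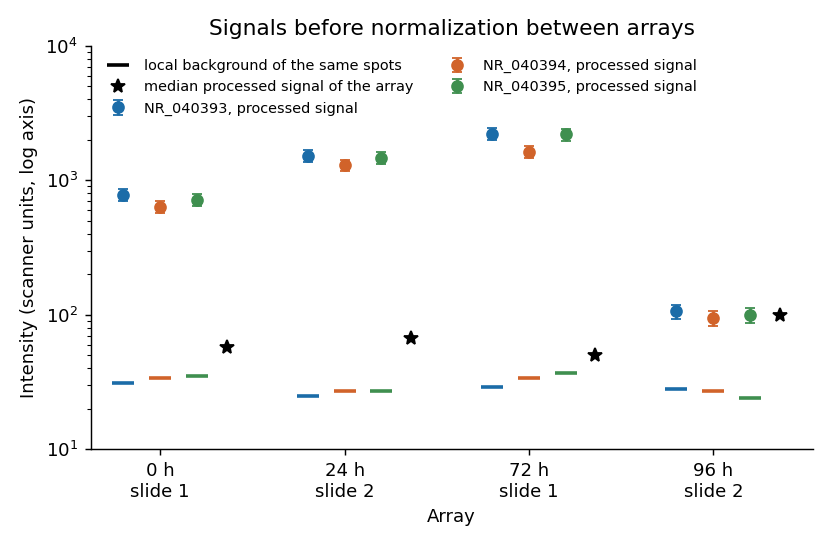
Processed signal of the 3 probes on each array (points, intensity on a log axis, bars are the error the scanner software estimates for the spot), the local background of the same spots (short lines) and the median processed signal of all probes on the array (stars). The 3 probes lie between 633 and 2216 on the first 3 arrays and between 94.4 and 106 at 96 h, on the array with the highest median.

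The 96 h array was the brightest, with a median processed signal over all probes of 99.4, against 57.7, 67.5 and 49.9 on the 0, 24 and 72 h arrays, so quantile normalization lowered its values. After normalization, on the log2 scale, the probe of NR_040393 stood at 9.81, 10.58, 11.12 and 6.14 on the 0, 24, 72 and 96 h arrays. The probe of NR_040394 stood at 9.52, 10.35, 10.69 and 5.97. The probe of NR_040395 stood at 9.69, 10.54, 11.11 and 6.05. The order of the time points was the same in all 3. The lowest normalized signal among probes called well above background on an array, used here as its floor, was 4.81, 5.17, 5.16 and 4.41 on the same arrays, and at 96 h the members were 1.56 to 1.73 above it on the log2 scale. They were at least 1.94 above the brightest of the 15 negative control probes on that array. Of these 15, 0 were called well above background at 96 h and 1 at 72 h.

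**Figure D3:**
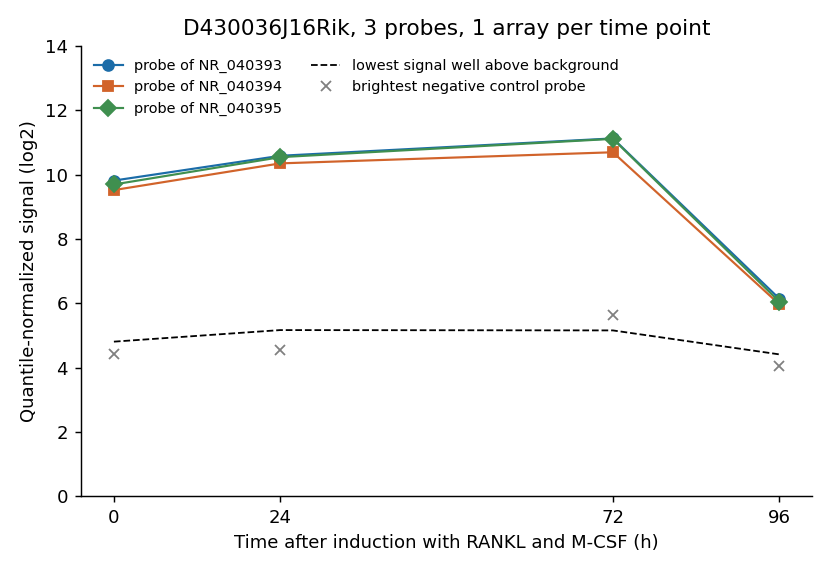
Quantile-normalized log2 signal of the 3 probes against time after induction, with 1 array per time point, the floor of each array (dashed) and the brightest of the 15 negative control probes (crosses). The lines rise together from between 9.52 and 9.81 to between 10.69 and 11.12 at 72 h, and end between 5.97 and 6.14 at 96 h, above the floor of 4.41.

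At 24 h the normalized signal was 1.78-fold that at 0 h in the median of the 3 probes, a log2 change of 0.83 (0.77 to 0.85 over the probes). None of the 3 passed the 2-fold limit used here, a limit that 3.37% of 39355 probes passed upward in that comparison. At 72 h the signal was 2.48-fold that at 0 h, a log2 change of 1.31, with 1.31 for NR_040393, 1.18 for NR_040394 and 1.42 for NR_040395. All 3 were past 2-fold, as the list they were taken from implies, where 4.32% of 39609 probes were at least 2-fold higher. These arrays share slide 1. From 24 h to 72 h the change was 0.54 (0.35 to 0.57) on the log2 scale, across slides and under 2-fold. In RNA of whole cultures, a change in the share of cells with the transcript and a change in its amount per cell cannot be told apart.

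At 96 h the signal was 12.5-fold lower than at 0 h in the median of the probes, a log2 change of −3.64. NR_040393 was 12.7-fold lower, NR_040394 was 11.7-fold lower and NR_040395 was 12.5-fold lower. All 3 were past 2-fold, against 8.43% of 42005 probes compared, and from the most negative change they ranked 91, 110 and 95 among these. Propagated from the software's estimates for the 2 spots of each probe, the error of this log2 change was 0.23 in each. Without normalization between arrays the fold was smaller, at 7.37, 6.71 and 7.19 in the order of the transcripts. Where the background was handled otherwise it was smaller as well, with a median log2 change of −2.84 for the median signal without background subtraction and −2.66 for that signal after normexp correction with an added offset of 50.

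Against 72 h, its highest point, the 96 h signal was 31.6-fold lower in the median, a log2 change of −4.98 (−5.06 to −4.72). All 3 probes passed the 2-fold limit, as 12.9% of 42014 probes did, and ranked from 28 to 40 from the most negative. Against 24 h it was 21.7-fold lower, a log2 change of −4.44 (−4.49 to −4.38). Here the arrays share slide 2, and the 3 probes ranked 25, 26 and 28 among 41467 probes, of which 6.5% were at least 2-fold lower. Without normalization between arrays the 96 h signal was 17.3-fold to 22.1-fold lower than at 72 h and 13.7-fold to 14.8-fold lower than at 24 h. The median log2 changes were −4.17 and −3.63 without background subtraction, and −3.99 and −3.48 after the normexp correction. Over all probes detected on both of the arrays compared, the median log2 change in the 6 comparisons made lay between −0.04 and 0.11, which quantile normalization keeps near 0 by its design.

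A set of 15 mRNAs used as references, among them Gapdh, Actb, Tbp and Hprt, is printed 20 times on each array. The spots not marked as outliers, 16 to 20 for each mRNA at 0 h, give the error between spots of 1 array. The normalized log2 signals of these mRNAs at 96 h differed from 0 h by 0.27 in the median, between −0.12 and 0.57. This range does not reach the members' changes at 96 h. At 72 h they differed from 0 h by 0.02 in the median, between −0.77 and 1.22, and there the highest of them, Gk (glycerol kinase), was above the 1.18 of NR_040394. The standard deviation over the spots of 1 probe had a median of 0.060 on the log2 scale. It was larger for dim probes: that of Ldhal6b, a lactate dehydrogenase-like gene whose spots had a mean log2 signal of 7.14 at 96 h, was 0.09 on that array and 0.21 at 72 h. At the brightness of the members on the other arrays, the spots of Gk, with a mean between 9.11 and 10.33, had standard deviations of 0.07 to 0.12. The changes of D430036J16Rik at 72 h and 96 h were larger than this spread of spots, which is technical and says nothing of the spread between cultures.

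The agreement between the 3 probes was close. Their log2 changes from 0 h to 96 h covered a range of 0.12, and this was the fourth smallest among 22 named genes with at least 2 different probes well above background at 0 h and 96 h. The other 21 genes had a median range of 0.53, between 0.12 and 3.003. Of these, AB346804, whose 2 probes share 55 bases in a row, was the only other gene with at least 40 bases shared between all its probes, and its range was 0.12. The 20 genes whose probes share fewer bases had a median range of 0.54. Close agreement was not limited to shared sequence, as the range of F730043M19Rik was 0.12 with a longest shared run of 5 bases. Among the 4 other genes with 3 or more probes, the range was smallest for Gm16026 (0.23) and BC038927 (0.49) and largest for TCRA, a T cell receptor alpha transcript (0.82), and 1810062O18Rik (2.43). For 1810062O18Rik, a probe at −1.16 and another at 1.28 pointed in opposite directions. The longest run shared by a pair of its 3 probes was 51 bases and the shortest was 4. These runs were not matched to the single changes. Brightness differed between the probes of D430036J16Rik by a factor of 1.23, 1.18, 1.35 and 1.13 on the 0, 24, 72 and 96 h arrays, with NR_040393 the brightest and NR_040394 the dimmest on all 4 arrays.

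Few probes combined a higher signal at 72 h with a lower signal at 96 h. Of 38875 probes that could be compared with 0 h at both times, 173 (0.445%) stood 2-fold or more above 0 h at 72 h and 2-fold or more below it at 96 h, the 3 of D430036J16Rik included. Of the 173, 147 were well above background on all 4 arrays and 91 are named in the lists. Their median log2 change was 1.40 at 72 h and −1.53 at 96 h. By the distance between both changes the members ranked from 15 to 22 among them, and 19 of the 173 probes were at least 8-fold lower at 96 h, of which 9 are named.

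**Figure D4:**
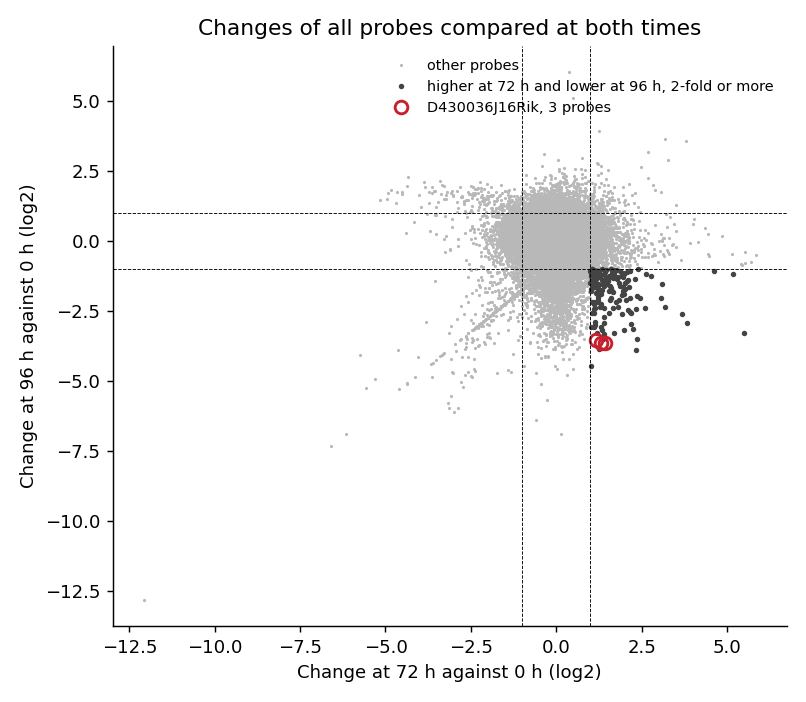
Log2 change at 96 h against 0 h (vertical) plotted against that at 72 h against 0 h (horizontal) for 38875 probes, with dashed lines at 2-fold. The 3 probes of D430036J16Rik (red circles) lie close together in the lower right field, which holds 173 probes (dark points and circles).

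Among the named probes well above background at both 0 h and 96 h, which number 1849, the members had the ranks 4, 8 and 6 from the most negative change, for NR_040393, NR_040394 and NR_040395. The natural antisense probes of the list of lncRNAs higher at 72 h give a narrower set. Of its 175 probes compared at 96 h, 16, of 14 genes, were at least 2-fold lower than at 0 h, the 3 probes of D430036J16Rik included. This is 9.14% of them, near the 8.43% of all probes, and the median log2 change over the 175 was 0.03. Next to D430036J16Rik, the most negative was AK052417, at −3.18, after a change of 1.99 at 72 h.

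Probes were then ordered by how close their log2 changes at 24, 72 and 96 h were to the median of the members, as the root mean square difference over these 3 comparisons, which all use the same 0 h array. Over the 43187 other probes with a detected signal on at least 1 array, the median difference was 2.31. The members themselves differed from their median by 0.04 to 0.09, 13 other probes lay within 0.5 and 75 within 1. The 2 nearest, ASMM10P027236 at 0.08 and ASMM10P055383 at 0.14, are not paired with a name here. Their log2 changes at 96 h were −3.51 and −3.87. Of the 10 nearest probes 3 were named. A name comes only from the lists of changed lncRNAs, which hold a part of those the paper counts. Transcripts outside the lists, changed or not, could not be found by name.

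Nearest by name was BC094916, whose transcript overlaps Ifi214, a gene of the interferon-inducible HIN-200 family, at chr1:173521311-173535957 on GRCm38. It stood at a normalized log2 signal of 7.65, 8.62, 8.96 and 4.55 on the 0, 24, 72 and 96 h arrays, and its difference from the profile was 0.32. AW011738 at chr4:156203284-156206028, which overlaps Perm1 and lies 2466 bases from Isg15, the gene of an interferon-induced ubiquitin-like protein, followed at 0.41, with 7.91, 9.03, 9.04 and 4.88. A noncoding transcript of Ifi44, an interferon-induced gene, at chr3:151745693-151749947 had 13.80, 14.62, 15.19 and 10.87, also at 0.41. Like D430036J16Rik, all 3 stood above their 0 h signal at 24 h and 72 h and below it at 96 h, where the log2 changes were −3.10, −3.02 and −2.93.

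The fourth, a transcript named IkappaB-zeta within Nfkbiz, the gene of a nuclear regulator of NF-kappaB target genes, at chr16:55817746-55818515 had 8.58, 9.46, 9.97 and 5.86 and a difference of 0.53. A noncoding transcript of Oas1g, an interferon-induced oligoadenylate synthetase gene at chr5:120876722-120887613, followed at 0.62 with 7.20, 8.04, 8.75 and 4.61. The lists class those of BC094916, Ifi44, IkappaB-zeta and Oas1g as exon sense-overlapping, on the strand of a gene and over its exons. Whether their probes also read the mRNA of that gene was not tested. The other named transcripts of the 10 were AK046587 (0.64), Gm15340 (0.77), Atad3aos (0.77), AK080501, which lies in the B cell transcription factor gene Pou2f2 (0.80), and Gm15645 (0.83). Their log2 changes were between 1.06 and 2.26 at 72 h and between −3.15 and −2.41 at 96 h. At 24 h they were between −0.10 and 0.56, less than the 0.83 of D430036J16Rik. Gm15340 was not well above background at 96 h, so its −2.97 there, taken from the floor, is a lower bound of its fall. The transcripts AK046587 and Gm15645 lie near each other on chromosome 7, with Gm15645 ending 21231 bases from AK046587 in RefSeq. Atad3aos, which starts beside the mitochondrial ATPase gene Atad3a, has another probe, and the changes of its 2 probes at 96 h were −2.41 and −0.79. With 4 arrays, likeness of this kind describes these arrays only, and 6 of the 10 names were kept when the background was handled otherwise.

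**Figure D5:**
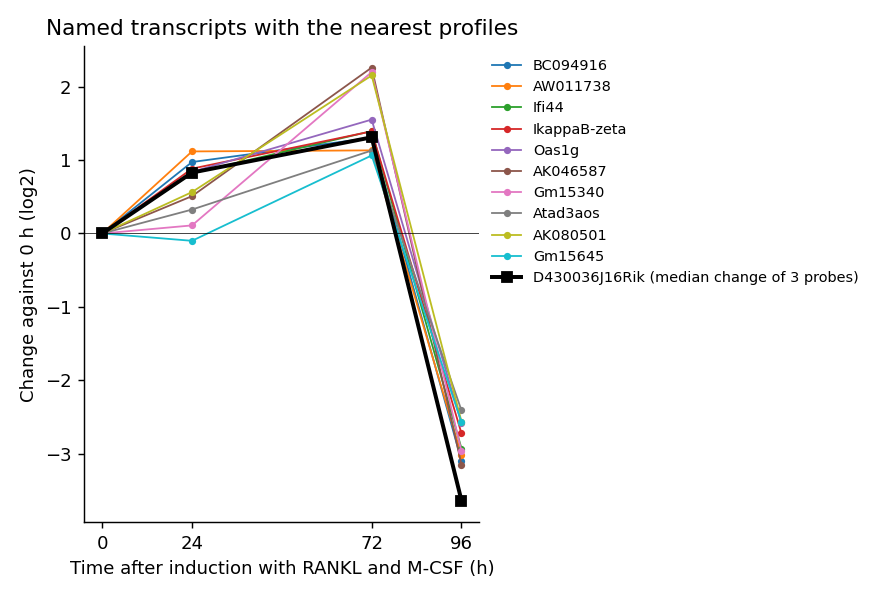
Log2 change against 0 h over time for D430036J16Rik (black, median change of its 3 probes) and the 10 named transcripts nearest to it. All 11 lines are above 0 at 72 h and below −2 at 96 h, and that of D430036J16Rik is the lowest there. The 96 h signal of Gm15340 was under the floor of 4.41, so its fall is a lower bound. Those of BC094916 (4.55) and Oas1g (4.61) were near that floor, which limits the fall they could show. The transcripts were picked for this likeness, from lists of changed lncRNAs.

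Around the gene, RefSeq has 14 other genes within 1 Mb, of which 2 are protein coding, and for none of them, Htr1b included, could a probe be identified by name. The level of Htr1b was thus not analysed here. By the lists' own coordinates 1 named probe lies in that window, Gm26713 at chr9:80955436-81203590, whose nearer end is 428340 bases from D430036J16Rik. It was not well above background at 0 h and 96 h, with normalized log2 signals of 2.69 and 3.46, and stood at 6.46 at 24 h and 5.24 at 72 h. Against the floor at 0 h the 24 h signal was at least 3.15-fold higher and the 72 h signal at least 1.35-fold higher.

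Genes of serotonin signalling (receptors, synthesis, transport and breakdown) were looked up by name, and 0 of 18 had a named probe. Markers of the cells were covered little better, with 1 of 14 osteoclast genes, 1 of 7 macrophage genes, 1 of 3 fibroblast genes and 0 of the T cell and B cell genes, all through noncoding transcripts. The lists class these transcripts as exon sense-overlapping as well, and whether their probes also read the mRNAs was not tested. The transcript in Mmp9, which encodes a gelatinase secreted by osteoclasts, had normalized log2 signals of 8.90, 7.42, 6.35 and 8.06. The transcript in Irf8, which encodes a transcription factor of macrophages that restrains osteoclast formation, had 9.18, 9.53, 11.06 and 9.27. The transcript in Col1a1, a collagen gene of fibroblasts and osteoblasts, had 4.62, 6.56, 5.41 and 6.73, the first of which did not pass the background call. The Mmp9 transcript was lowest and the Irf8 transcript highest at 72 h, where D430036J16Rik was highest, and their part in its values was not tested. Noncoding transcripts do not stand for the mRNAs of these genes, and the labelled stages could not be checked against their defining markers.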

How the data were processed

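RNA from RAW264.7 cells (0, 24, 72 and 96 h of induction) was depleted of rRNA, amplified with random primers into Cy3-labelled cRNA and hybridised by the authors to Arraystar Mouse LncRNA V3.0 arrays (1-colour Agilent), 1 per time point. The deposited spot files hold intensity values that Agilent's Feature Extraction software gave, whose headers name version 11.0.1.1: a background-subtracted, detrended processed signal, a median signal and a local background, none normalized between arrays. The authors also deposited a log2 table of 60804 probes, quantile normalized in GeneSpring.

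Here, spots marked as controls or outliers were left out, log2 processed signals were averaged per probe and the 4 arrays were quantile normalized. The 15 probes named as negative controls were not marked as controls, so they stayed among the 60930 probes. The values differed from the deposited log2 table by at most 0.031, and by at most 0.0023 for D430036J16Rik. A comparison took the probes called well above background on either of its arrays. A value not well above background was raised to the floor of its array. A 2-fold limit was used in place of a test, since no time point was repeated, and precision is limited by having 4 arrays. Of the probes, 58.8% to 66.8% were well above background on an array and 0 spots were saturated.

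Names, classes and coordinates (GRCm38) come from the study's supplementary lists, the columns of which with fold changes and p-values were not used. Named genes are D430036J16Rik, the 10 named genes nearest in profile (well above background on at least 3 arrays), named genes within 1 Mb, fixed serotonin and osteoclast lists, and 2 genes at each end of the range of agreement between probes. AK052417, AB346804, F730043M19Rik, the reference mRNAs and the Irf8 and Col1a1 transcripts were named after their values were seen. The members and lists were chosen with earlier results of these data known. Gene intervals and promoter sequence are from RefSeq (GRCm38.p6). The alternatives were other scalings (75th percentile, the median of commonly detected probes, cyclic loess, none), the deposited log2 values, other background corrections, outlier spots kept, other filters and limits, single probes and other measures of likeness. Python 3.11.15, numpy 2.4.6, pandas 2.3.3, matplotlib 3.10.9, R 4.3.3 and limma 3.58.1 were used, and the functions were tested on simulated data.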

Additional observations from a re-analysis of the deposited data

Results flagged for a closer look

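D430036J16Rik moved in opposite directions at different times against the same 0 h array: the median log2 change of its 3 probes was 1.31 at 72 h and −3.64 at 96 h, and each of the 3 probes was higher at the first and lower at the second. The difference was not tested, since each time point has 1 array.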

How the results depend on the processing

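No paired analysis was possible because each time point has 1 array. D430036J16Rik kept its directions under all 9 alternatives of each change, and each of its 3 probes was over 2-fold higher at 72 h than at 0 h and over 2-fold lower at 96 h than at 0, 24 and 72 h under every one of the 8 scalings and corrections. Scaling to the 75th percentile gave median log2 changes of 1.46 at 72 h, −3.45 at 96 h and −4.23 for 96 h against 24 h, and scaling to the median of commonly detected probes 1.47, −3.49 and −4.25. Cyclic loess gave 0.73 at 24 h, −3.46 at 96 h, −4.87 for 96 h against 72 h and −4.15 against 24 h.

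The next corrections compress low signals because they leave or add a constant. The median signal without background subtraction gave 1.19 at 72 h and −2.84, −4.17 and −3.63 for 96 h against 0, 72 and 24 h, with 816 probes higher at 72 h, 2213, 3063 and 1468 lower at 96 h in the same order, 88 with both changes, a range of 0.25 between the probes of D430036J16Rik and 6 of the 10 likest names kept. Normexp on the median signal, chosen after seeing the data, gave 1.18, −2.66, −3.99 and −3.48, with 737, 2036, 2802, 1268 and 77 probes, a range of 0.26 and 6 names. Normexp on the mean signal was not run, since the files used here hold no mean signal.

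With no normalization, also chosen after seeing the data, the changes were 1.03 at 24 h, past 2-fold, 1.51 at 72 h and −2.85, −4.39 and −3.84 at 96 h, and 1353, 2127, 1182 and 86 probes passed the limits at 96 h against 0, 72 and 24 h and in both changes. The median change of probes detected at both 0 h and 96 h was then 0.68 from 0 h to 96 h. Without filter and floor 4197 probes were higher at 72 h, 4218 lower at 96 h than 24 h and 293 in both changes. A 1.5-fold limit gave 5323, 7032, 10463, 6371 and 861 probes and a 4-fold limit 231, 864, 1214, 553 and 17, in the order of higher at 72 h, lower at 96 h than 0, 72 and 24 h, and both. Lower probes were 55.0% of those past 2-fold at 72 h and 54.4% for 96 h against 72 h, but 66.7% and 42.0% under the 75th percentile and, at 72 h, 65.6% under the median scaling; with no normalization they were 42.8% at 24 h (64.5% in the values reported), 10.4% at 96 h (59.8%), 13.4% for 96 h against 72 h and 17.3% for 96 h against 24 h (55.0%).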
